A study of Mus musculus with 72 samples.

Results

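The 5 transcripts described here belong to the tumour necrosis factor (TNF) family of costimulatory receptors and ligands. They are Tnfrsf4, which encodes the receptor OX40, Tnfsf4, which encodes the OX40 ligand, Tnfrsf18 (GITR), Tnfrsf25 (DR3) and Cd40. They were chosen by gene symbol, with earlier results of these data known, and are 5 of the 1224 genes on the targeted panels. Each gene has 1 row in the deposited count table, all of them on panel 1, and all 5 passed the filter on low counts that left 1038 genes for testing.

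The samples were 36 tumours of 4T1 mouse mammary carcinoma cells, from 36 female BALB/c mice aged 6 to 12 weeks, 9 mice per group. The cells were injected into the thigh muscle on day -6, the mice were treated on day 0, and the tumours were taken on day 6. The BA+RT group received bintrafusp alfa (BA; M7824 in the labels) and radiation, the RT group received radiation with an isotype antibody, the BA group received 492 µg of BA, and the control group received 400 µg of the isotype antibody. BA is an antibody against PD-L1 joined to a soluble TGF-β receptor that traps the cytokine, and no group received either part alone. The dose of radiation is not stated in the labels used here, all tumours derive from a single cell line, and the labels call the tissue orthotopic although the cells were placed in the thigh.

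OX40, GITR and DR3 are receptors found mainly on activated and regulatory T cells, and ligand on antigen-presenting cells gives the T cell a survival and proliferation signal through TRAF proteins and NF-κB. In mouse tumours OX40 and GITR are typically abundant on Foxp3-positive regulatory T cells. CD40 works in the other direction: it sits on B cells, dendritic cells and macrophages, and CD40 ligand on helper T cells licenses these cells to present antigen.

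Each transcript was read through 1 short amplicon, whose place matters for what the counts can show. On GRCm38, in the GENCODE annotation, the Tnfsf4 amplicon is at chr1:161417111-161417205 in the coding part of exon 3 of 3, and the Cd40 amplicon is at chr2:165063468-165063558 in the coding part of exon 5 of 9. The transcripts of OX40, GITR and DR3 were read in the 3' untranslated part of their last exons: Tnfrsf4 at chr4:156016464-156016565 in exon 7 of 7, Tnfrsf18 at chr4:156028789-156028883 in exon 5 of 5, and Tnfrsf25 at chr4:152119895-152119993 in exon 7 of 7. All 5 genes are on the plus strand, and Tnfrsf4 and Tnfrsf18 are neighbours on chromosome 4, 9552 bases apart. The Tnfrsf4 amplicon lies in exons of 2 of 3 annotated transcripts, the Tnfrsf18 amplicon in 4 of 6, the Tnfrsf25 amplicon in 2 of 4, and the Cd40 amplicon in 5 of 7, so other isoforms were not counted.

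The 2 amplicons that lie in coding sequence are shown, the stretches of message counted for the ligand and for CD40. They are printed 5′ to 3′ as in the GENCODE transcripts, with the 95 bases of Tnfsf4 first and the 91 bases of Cd40 after them.
Tnfsf4: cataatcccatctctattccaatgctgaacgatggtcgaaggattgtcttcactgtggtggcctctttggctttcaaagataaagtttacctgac
Cd40: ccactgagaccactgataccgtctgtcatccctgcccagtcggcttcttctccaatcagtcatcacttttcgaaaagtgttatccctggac

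Panel 1 libraries held 959532 to 2616197 counts. The range was 1756429 to 2178557 in BA+RT tumours, 1526991 to 2616197 in RT tumours, 959532 to 1763286 in BA tumours and 1060824 to 1956764 in control tumours, so the irradiated tumours were read more deeply. Levels are CPM, counts scaled by library size with TMM factors, and changes are log2 fold changes from edgeR with a standard error (SE). Amplicons differ in how well they amplify, so levels are compared between groups and not between genes. Control mouse 6 stood apart from its group on the first principal component of all genes, and no call on the 5 transcripts was lost without it. The material was bulk tumour RNA, in which fewer cells of a type and less RNA per cell cannot be told apart.

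In tumours treated with BA alone, OX40, GITR and DR3 were higher than in control tumours and Cd40 was lower. In tumours treated with RT, alone or with BA, the OX40 ligand was 4.70-fold to 5.54-fold higher than in control tumours and GITR and Cd40 were lower. OX40 and DR3 showed no change from control that passed the test in these tumours. Of the 5 transcripts, 3 were called in BA+RT against control (1 higher, 2 lower), where 47.6% of all tested genes were called at an adjusted p under 0.05. In RT against control 3 were called (1 higher, 2 lower) against 41.6% of all genes, and in BA against control 4 were called (3 higher, 1 lower) against 27%. BA+RT against RT called 1 of the 5 (lower), against 10.8% of all genes, and BA+RT against BA called all 5 (1 higher, 4 lower), against 53.5%. The median log2 fold change of the 5 was 0.77 in BA against control and -0.88 in BA+RT against BA, while the median over all tested genes was 0.00 and 0.02. The 5 were chosen with earlier results of these data known, so no excess over all genes is read from these shares and medians.

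**Figure D1:**
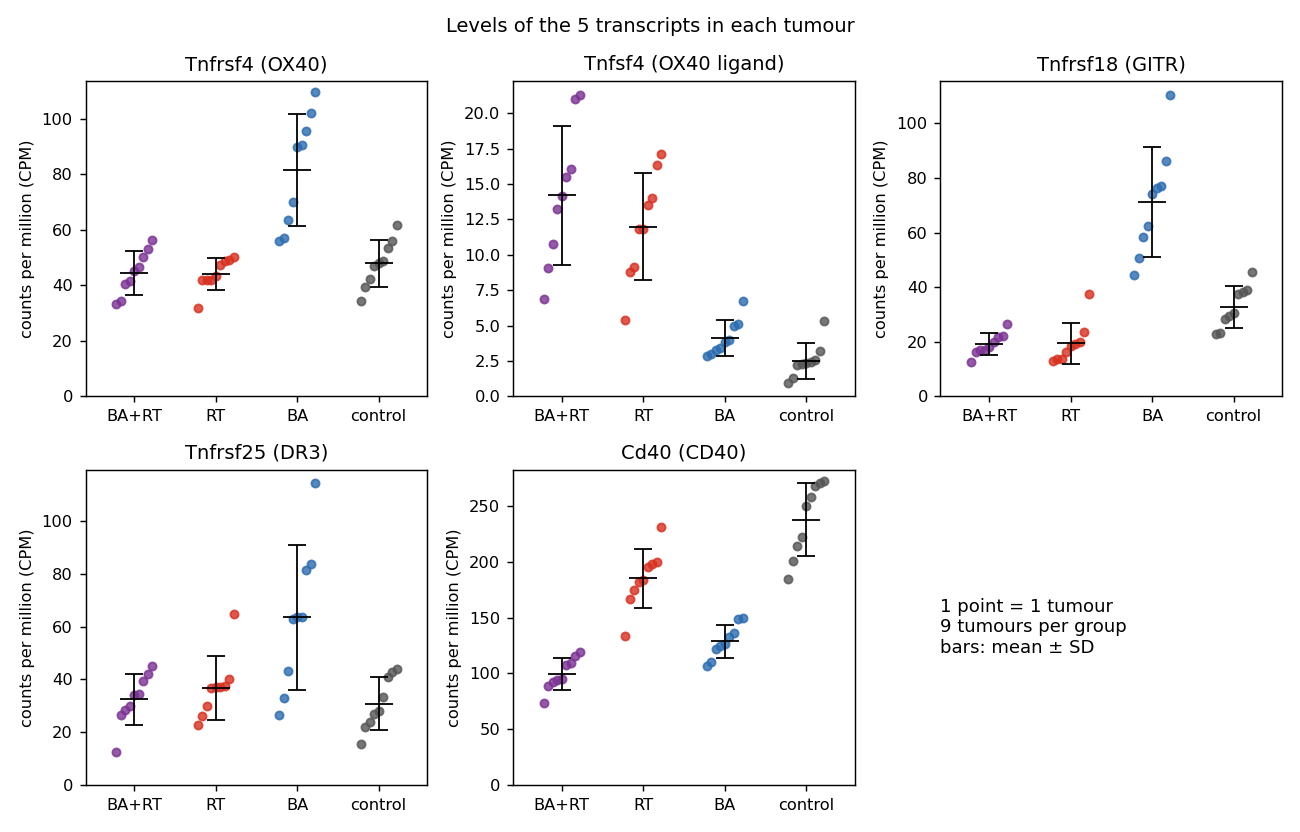
CPM of the 5 transcripts (vertical axes) in each tumour of the BA+RT, RT, BA and control groups (horizontal axes); 1 point is 1 tumour, and bars are the mean ± SD of 9 tumours. Tnfsf4 is high in both irradiated groups, Tnfrsf4, Tnfrsf18 and Tnfrsf25 are high in the BA group, and Cd40 is lowest in the BA+RT group.

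Tnfrsf4 encodes OX40, which T cells put on their surface after they meet antigen. Its lowest, median and highest levels were 33.3, 45.3 and 56.2 CPM in BA+RT tumours and 32.0, 43.3 and 50.2 CPM in RT tumours. They were 56.1, 89.9 and 109.8 CPM in BA tumours and 34.5, 48.0 and 61.6 CPM in control tumours. The BA group stood above the other 3 groups, which covered much the same range, and 7 of 9 BA tumours exceeded every control tumour.

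Mean Tnfrsf4 was 81.7 ± 20.2 CPM in BA tumours and 47.9 ± 8.43 CPM in control tumours (SD, n = 9 each), a 1.71-fold rise (log2 fold change 0.77, SE 0.13, edgeR adjusted p = 4.73e-05). BA+RT tumours averaged 44.5 ± 7.86 CPM, lower than BA tumours by a log2 fold change of -0.88 (SE 0.13, adjusted p = 1.73e-06), and 8 of 9 lay below every BA tumour. Against control tumours the change was -0.10 in BA+RT tumours (95% interval -0.37 to 0.16, adjusted p = 0.539) and -0.11 in RT tumours (-0.38 to 0.15, adjusted p = 0.544). The level in order was BA, control, BA+RT, RT, and the last 3 did not differ beyond the test's threshold in the comparisons among them. With factors from 9 reference genes these values near 0 change sign, to 0.06 in BA+RT and 0.10 in RT against control, and remain uncalled.

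Tnfsf4 encodes the OX40 ligand, carried by antigen-presenting cells and, in inflamed tissue, by endothelium. It was the least abundant of the 5 in counts. Panel 1 libraries held 13, 28 and 42 counts (lowest, median, highest) in BA+RT tumours and 10, 21 and 42 in RT tumours, against 3, 5 and 8 in BA tumours and 1, 4 and 7 in control tumours. Summed over 9 tumours this was 245 counts in BA+RT, 211 in RT, 51 in BA and 34 in control tumours. Every irradiated tumour had more raw Tnfsf4 counts than every unirradiated one, with the irradiated tumours read more deeply. Each of the 36 tumours had at least 1.

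After scaling, Tnfsf4 was at 6.87, 14.2 and 21.3 CPM in BA+RT tumours (lowest, median, highest) and at 5.37, 11.9 and 17.1 CPM in RT tumours. It was at 2.82, 3.84 and 6.76 CPM in BA tumours and at 0.922, 2.33 and 5.33 CPM in control tumours. Every BA+RT tumour and every RT tumour was above every control tumour, the closest being an RT tumour at 5.37 CPM and a control tumour at 5.33 CPM. Every BA+RT tumour was also above every BA tumour. RT and BA tumours overlapped after scaling: the lowest RT tumour, at 5.37 CPM, was below the highest BA tumour, at 6.76 CPM.

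The rise over control tumours was 5.54-fold in BA+RT tumours (log2 fold change 2.47, SE 0.26, edgeR adjusted p = 1.93e-09) and 4.70-fold in RT tumours (2.23, SE 0.26, adjusted p = 1.9e-08). BA+RT tumours exceeded BA tumours 3.42-fold (1.77, SE 0.25, adjusted p = 3.61e-07). BA added to RT changed it by 0.24 (95% interval -0.18 to 0.66, adjusted p = 0.528). BA alone changed it by 0.70 against control (interval 0.12 to 1.27, SE 0.29), which did not pass after adjustment (adjusted p = 0.0824), although all 9 BA tumours lay above the control mean. Tnfsf4 did not pass the low-count filter with BA and control tumours alone, nor with RT and control tumours alone. It entered both comparisons only because all 4 groups were filtered together. In BA+RT against control and BA+RT against BA, Tnfsf4 met the filter through the BA+RT group, where it was high. It had 13 to 42 counts per library there, against 1 to 7 in control and 3 to 8 in BA tumours. The adjusted p values of Tnfsf4 in all of these comparisons carry that limit, and the control side rests on 1 to 7 counts per library. With so few counts the BA value also turned on control mouse 1, without which it was 0.89 (adjusted p = 0.0346), so no change with BA alone is read from it. The level in order was BA+RT, RT, BA, control; neither BA+RT with RT nor BA with control differed beyond the threshold, and RT was not tested against BA.

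**Figure D2:**
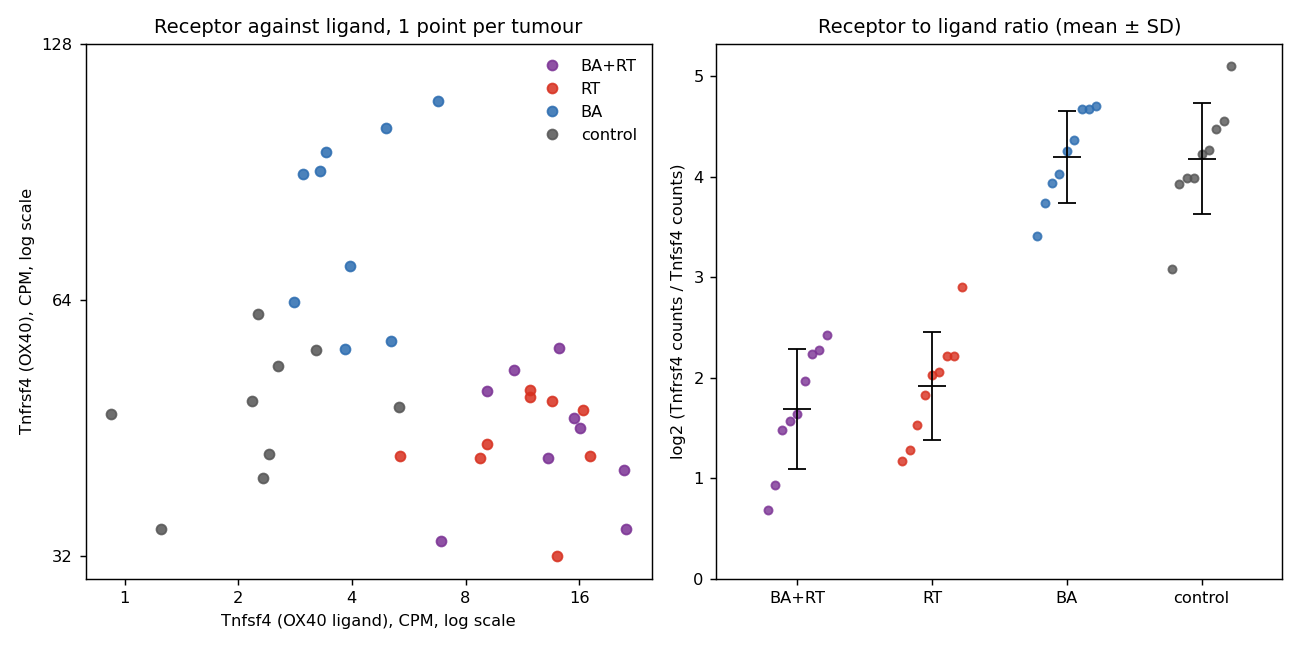
Left, CPM of Tnfrsf4 (vertical) against Tnfsf4 (horizontal), both on log scales, 1 point per tumour; right, the log2 ratio of their panel 1 counts in the BA+RT, RT, BA and control groups, with mean ± SD of 9 tumours. The BA tumours are displaced upward and, with all 9 above the control mean of Tnfsf4, also to the right. The irradiated tumours lie farther to the right, though RT and BA tumours overlap in Tnfsf4. The ratio separates irradiated from unirradiated tumours without overlap.

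Set against each other, receptor and ligand had their called changes from control tumours in different groups. The receptor was called with BA alone and the ligand in both irradiated groups. The ratio of Tnfrsf4 to Tnfsf4 counts within a library cancels library size and scaling, and 0.5 was added to each count. It had a lowest, median and highest value of 1.61, 3.12 and 5.36 in BA+RT tumours and of 2.26, 4.07 and 7.48 in RT tumours. It was 10.6, 19.2 and 26.1 in BA tumours and 8.47, 18.8 and 34.3 in control tumours. The ratio in every irradiated tumour was thus below that in every unirradiated tumour.

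On the log2 scale the mean ratio was 1.69 ± 0.60 in BA+RT, 1.91 ± 0.54 in RT, 4.20 ± 0.46 in BA and 4.18 ± 0.55 in control tumours (SD, n = 9). The difference was -2.49 for BA+RT against control, -2.27 for RT against control and -2.51 for BA+RT against BA. Each had an exact two-sided permutation p of 4.11e-05, the smallest that 9 against 9 tumours can give, and an adjusted p of 0.000309 over 30 ratio tests. For BA against control the difference was 0.02 (exact permutation, adjusted p = 0.957), and for BA+RT against RT it was -0.22 (adjusted p = 0.516). In BA against control the log2 fold changes of receptor and ligand were both positive, 0.77 and 0.70, although only the receptor was called. The ratio therefore does not show a rise of the receptor over the ligand with BA alone. Control tumours had few ligand counts, so their ratios rest on 1 to 7 counts in the denominator.

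Across the 9 tumours of a group, receptor and ligand levels showed no relation that passed the test. Pearson's r of Tnfrsf4 with Tnfsf4 was -0.07 in BA+RT tumours (Spearman's rho -0.20, exact permutation p = 0.860 and 0.613), and -0.59 without the 2 tumours farthest from the median. It was 0.06 in RT (rho 0.10, p = 0.879 and 0.810, without 2 tumours 0.47), 0.26 in BA (rho 0.27, p = 0.507 and 0.493, without 2 tumours 0.64) and 0.35 in control tumours (rho 0.35, exact permutation p = 0.362 and 0.359, without 2 tumours 0.20). Over the 12 within-group relations computed, none had an adjusted p under 0.05.

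Tnfrsf18 encodes GITR, which regulatory T cells carry at rest and other T cells carry after activation. Its lowest, median and highest levels were 12.7, 17.98 and 26.5 CPM in BA+RT tumours and 12.9, 18.3 and 37.3 CPM in RT tumours. They were 44.5, 74.1 and 110.6 CPM in BA tumours and 22.9, 30.4 and 45.6 CPM in control tumours. Every BA tumour was above every BA+RT tumour and 8 of 9 were above every control tumour, while 8 of 9 BA+RT tumours were below every control tumour.

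Unlike Tnfrsf4, Tnfrsf18 had a called change in each comparison with control tumours. It averaged 71.2 ± 20.1 CPM in BA tumours and 32.7 ± 7.73 CPM in control tumours (SD, n = 9 each), a 2.18-fold rise (log2 fold change 1.12, SE 0.19, edgeR adjusted p = 3.21e-05). It fell to 19.03 ± 4.07 CPM in BA+RT tumours (-0.78 against control, SE 0.19, adjusted p = 0.00108) and to 19.4 ± 7.59 CPM in RT tumours (-0.75 against control, SE 0.19, adjusted p = 0.00178). BA+RT tumours were 3.74-fold below BA tumours (-1.90, SE 0.19, adjusted p = 7.06e-10), the largest fall of the 5 transcripts in any of the 5 comparisons. The level in order was BA, control, RT, BA+RT, and the last pair differed by -0.03 (95% interval -0.41 to 0.35, adjusted p = 0.945). RT mouse 24 had the highest RT level, at 37.3 CPM, and without it the change in RT against control was -0.95 (adjusted p = 5.35e-05).

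The share of the pair taken by OX40 and by GITR shifted as well. The log2 ratio of Tnfrsf4 to Tnfrsf18 counts averaged 1.22 ± 0.49 in BA+RT, 1.24 ± 0.50 in RT, 0.21 ± 0.26 in BA and 0.56 ± 0.37 in control tumours (SD, n = 9). It was higher in BA+RT than in control tumours by 0.66 and in RT than in control tumours by 0.68 (exact permutation, adjusted p = 0.014 for both), and higher in BA+RT than in BA tumours by 1.02 (adjusted p = 0.000411). In BA against control it was -0.35 and did not pass (adjusted p = 0.0636), but it passed without BA mouse 10 (-0.41), without control mouse 4 (-0.39) or without control mouse 5 (-0.42). Groups overlapped in all of these.

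Tnfrsf25 encodes DR3, the receptor of TL1A, which costimulates T cells and expands regulatory T cells. Its lowest, median and highest levels were 12.5, 34.3 and 44.9 CPM in BA+RT tumours and 22.7, 37.1 and 64.9 CPM in RT tumours. They were 26.7, 63.7 and 114.5 CPM in BA tumours and 15.7, 28.2 and 43.9 CPM in control tumours. BA tumours varied widely, with a coefficient of variation of 43.2%, against 30.1% to 32.7% in the other groups, and 6 of 9 exceeded every control tumour.

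Mean Tnfrsf25 was 63.7 ± 27.5 CPM in BA tumours and 30.9 ± 10.1 CPM in control tumours (SD, n = 9 each), a 2.06-fold rise (log2 fold change 1.04, SE 0.24, edgeR adjusted p = 0.00135). It averaged 32.5 ± 9.78 CPM in BA+RT tumours, below BA tumours by -0.97 on the log2 scale (SE 0.24, adjusted p = 0.000945). Against control tumours it differed by 0.07 in BA+RT tumours (95% interval -0.40 to 0.54, adjusted p = 0.835) and by 0.26 in RT tumours (-0.21 to 0.73, adjusted p = 0.420). The mean of RT tumours was 36.9 ± 12.1 CPM. The groups overlapped in every comparison of this receptor, and the level in order was BA, RT, BA+RT, control, of which the last 3 showed no called difference among them.

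Cd40 varied little within groups, with coefficients of variation of 11.8% to 14.6%. Its lowest, median and highest levels were 73.3, 95.2 and 118.9 CPM in BA+RT tumours and 133.9, 183.8 and 231.4 CPM in RT tumours. They were 106, 126 and 150.0 CPM in BA tumours and 184, 250 and 273 CPM in control tumours. Both BA+RT and BA tumours lay wholly below the control tumours, and BA+RT tumours lay wholly below RT tumours. The level in order was control, RT, BA, BA+RT; RT was not tested against BA.

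Cd40 averaged 99.4 ± 14.5 CPM in BA+RT, 185.1 ± 26.7 in RT, 128.6 ± 15.2 in BA and 238.0 ± 33.0 in control tumours (SD, n = 9). Against control it fell 2.39-fold in BA+RT tumours (log2 fold change -1.26, SE 0.10, edgeR adjusted p = 1.66e-12) and 1.84-fold in BA tumours (-0.88, SE 0.10, adjusted p = 3.85e-08). BA+RT tumours were below RT tumours by nearly the same amount, 1.87-fold (-0.90, SE 0.10, adjusted p = 1.88e-08). The change with RT was smaller, -0.36 against control (SE 0.09, adjusted p = 0.00271) and -0.38 for BA+RT against BA (SE 0.10, adjusted p = 0.0013). Those 2 smaller falls depended on the scaling: with factors from the 9 reference genes they were -0.13 (adjusted p = 0.329) and -0.18 (adjusted p = 0.164) and no longer passed, while the falls with BA kept their calls.

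**Figure D3:**
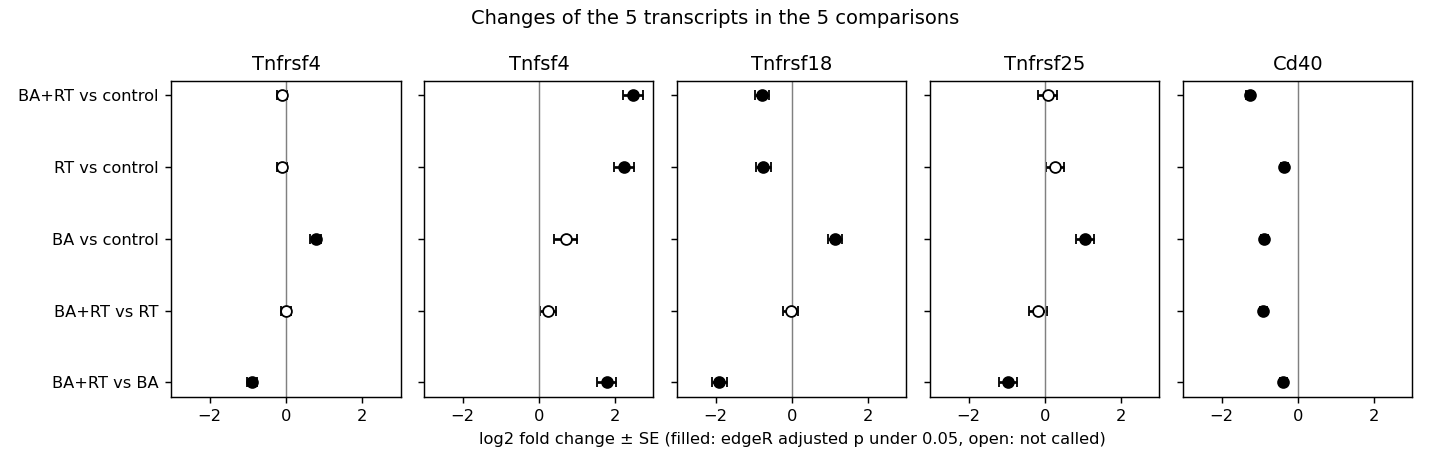
Log2 fold change ± SE (horizontal) of each transcript in the 5 comparisons (vertical); filled points passed an edgeR adjusted p under 0.05. Tnfsf4 stands to the right of 0 in the 3 comparisons that differ in radiation, and Cd40 stands to the left of 0 in all 5.

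The design also tests whether BA acted differently on a transcript when radiation was given. A called difference was found for OX40, GITR and DR3, 3 of the 5 transcripts, where 8.29% of all tested genes passed the same test. Because the 5 were chosen with earlier results of these data known, no excess over that share is read from this count. For Tnfrsf4 the change with BA was 0.01 with radiation (BA+RT against RT) and 0.77 without it (BA against control), an interaction of -0.77 (SE 0.19, edgeR adjusted p = 0.0083). For Tnfrsf18 it was -0.03 with radiation and 1.12 without, an interaction of -1.15 (SE 0.27, adjusted p = 0.00528). For Tnfrsf25 it was -0.19 with radiation and 1.04 without, an interaction of -1.23 (SE 0.34, adjusted p = 0.0188). The 3 receptors were therefore higher with BA in unirradiated tumours, and BA+RT tumours showed no called change from RT tumours.

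Cd40 and Tnfsf4 gave no called interaction. For Cd40 the change with BA was -0.90 with radiation and -0.88 without, a difference of -0.02 (95% interval -0.29 to 0.24, adjusted p = 0.939). For Tnfsf4 it was 0.24 with radiation and 0.70 without, a difference of -0.46 (interval -1.16 to 0.25, adjusted p = 0.460). Neither missed threshold shows that BA acted alike with and without radiation.

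**Figure D4:**
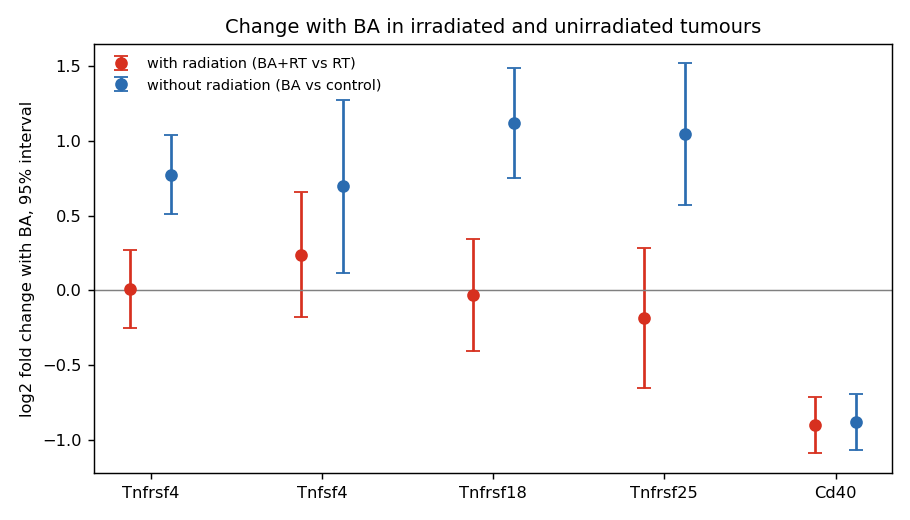
Log2 fold change with BA (vertical; points with 95% intervals, not adjusted for multiple tests) in irradiated tumours (BA+RT against RT) and unirradiated tumours (BA against control) for each transcript (horizontal). The paired points are far apart for Tnfrsf4, Tnfrsf18 and Tnfrsf25 and lie together for Cd40.

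Partners of these receptors and ligands were on panel 1 as well. Tnfsf18, the GITR ligand, averaged 7.48 ± 4.02 CPM in BA+RT, 4.35 ± 4.68 in RT, 9.82 ± 4.63 in BA and 7.63 ± 4.60 in control tumours (SD, n = 9), and passed in none of the comparisons (edgeR adjusted p = 0.112 for RT against control, log2 fold change -0.86). Tnfsf15, the ligand of DR3, and Cd40lg, the ligand of CD40, were too low for the filter and were not tested. Tnfsf15 had 56 counts summed over BA+RT, 102 over RT, 9 over BA and 42 over control tumours, and Cd40lg had 4, 4, 10 and 5 counts in the same groups.

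Among the 13 TNF family ligands on the panels, 10 were tested, and Tnfsf4 had the largest called change in each of the 3 comparisons that differ in radiation. In BA+RT against control 3 were higher (Fasl, Tnf and Tnfsf4) and 1 was lower (Ltb), and in RT against control the same 3 were higher and Tnfsf14 was lower. These counts were near the share of all tested genes called there, 47.6% and 41.6%. The lists that follow have the same background, with 27% in BA against control, 10.8% in BA+RT against RT and 53.5% in BA+RT against BA. Tnf, the founding cytokine of the family, was 1.20 higher on the log2 scale in RT than in control tumours (SE 0.16, edgeR adjusted p = 3.54e-07). Fasl, which kills through the receptor Fas, was 1.17 higher in BA+RT than in control tumours (SE 0.32, adjusted p = 0.00262). In BA against control Fasl (1.19, adjusted p = 0.00737) and Ltb were higher and Tnfsf11, the cytokine RANKL, was lower (-1.15, adjusted p = 0.0115). No ligand passed in BA+RT against RT, and Ltb, the membrane anchor of lymphotoxin, had an interaction of -1.08 (SE 0.34, adjusted p = 0.0427). The median change of the 10 ligands was -0.10 in BA+RT, 0.11 in RT and 0.19 in BA against control.

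Of 14 receptors of the family on the panels 13 were tested, and Tnfrsf4, Tnfrsf18 and Tnfrsf25 were the ones called higher in BA against control, with Cd40 the one called lower. In BA+RT against BA 8 receptors were lower and only Ltbr was higher. Of all tested genes 27% were called in BA against control and 53.5% in BA+RT against BA. Tnfrsf9, the receptor CD137 of activated T cells and NK cells, was lower by -1.02 in BA+RT and by -0.87 in RT against control (SE 0.22 for both, edgeR adjusted p = 0.000267 and 0.00173). In BA against control it was 0.56 and did not pass (adjusted p = 0.0536). OX40, GITR and DR3 were the only ones of the 13 with a called interaction. The median change of the 13 receptors was -0.12 in BA+RT, -0.11 in RT and 0.15 in BA against control.

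**Figure D5:**
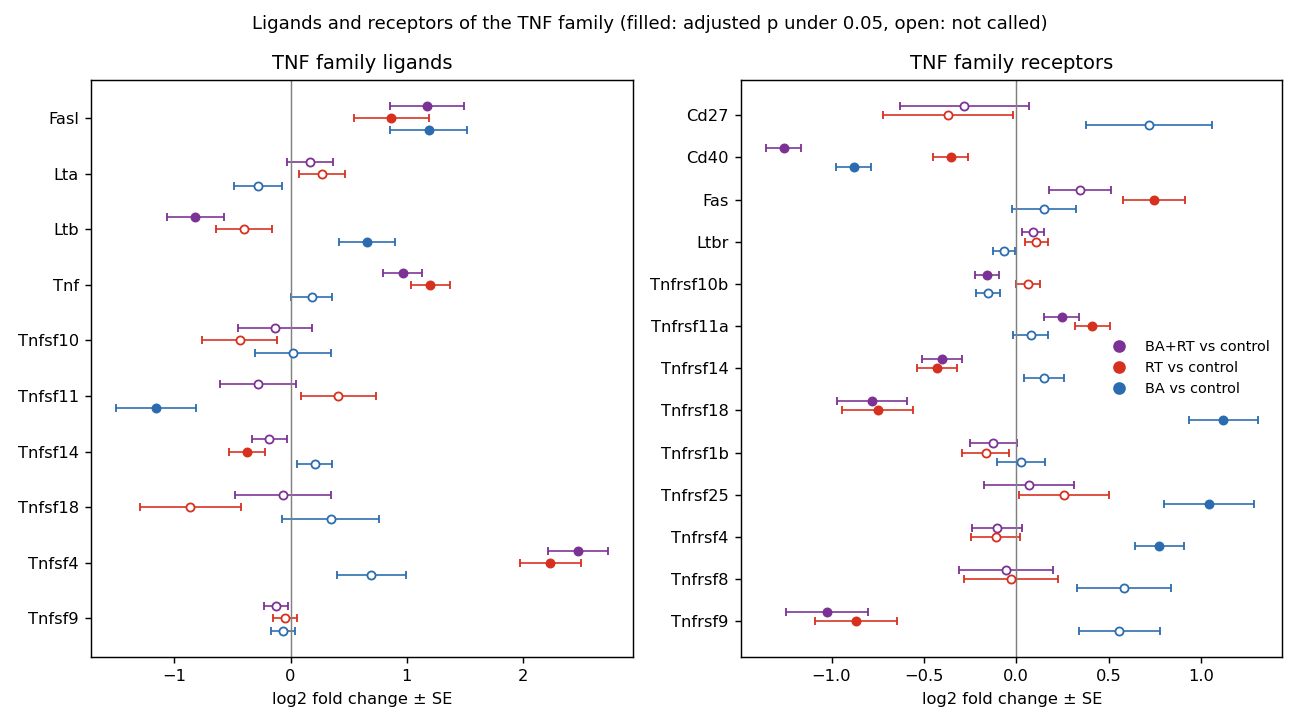
Log2 fold change ± SE (horizontal) of the 10 tested ligands and 13 tested receptors of the TNF family (vertical) for BA+RT, RT and BA against control; filled points passed an edgeR adjusted p under 0.05. Tnfsf4 is the ligand farthest to the right in both irradiated groups, and Tnfrsf18, Tnfrsf25 and Tnfrsf4 are the filled receptors on the right in the BA group.

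Downstream of these receptors, 12 genes of TRAF and NF-κB signalling were tested. In BA against control only Bcl2, a survival factor, was called, 0.46 higher (SE 0.15, edgeR adjusted p = 0.0165). In BA+RT against control 3 were higher and 3 lower, and in RT against control 2 were higher and 3 lower. These counts were near the share of all tested genes called there, 47.6% and 41.6%. Bcl2l1, which encodes the survival factor BCL-XL, was 0.39 higher in BA+RT than in control tumours (SE 0.05, adjusted p = 6.01e-08), and Nfkbib, an inhibitor of NF-κB, was 0.40 higher in RT than in control tumours (SE 0.08, adjusted p = 7.73e-05). The other costimulatory family, CD28 and B7, had 12 tested genes, of which 6 were higher and 1 lower in BA against control. Ctla4 (1.80, SE 0.41, adjusted p = 0.00119) and Icos (1.49, SE 0.34, adjusted p = 0.000992) led the higher ones. In BA+RT against BA 7 of the 12 were lower and 3 higher, and in BA+RT against RT Cd80 (-0.46, adjusted p = 0.0227) and Cd86 (-0.36, adjusted p = 0.0261), the ligands of CD28 on antigen-presenting cells, were lower.

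Markers of T cells and NK cells moved with the 3 receptors in some comparisons and not in others. The summed level of 12 T cell markers was 88.8 to 261 CPM in BA+RT, 72.0 to 291 in RT, 163 to 498 in BA and 80.8 to 303 in control tumours, and none of the 12 was at 0 in all mice. Of 11 tested, 5 were higher and none lower in BA against control, and 9 were lower in BA+RT against BA. Of all tested genes 27% and 53.5% were called in these comparisons. Cd2, Cd4 and Cd5 were lower in BA+RT and Cd2 and Cd5 in RT than in control tumours. In both comparisons Tnfrsf18 was called lower as well, while Tnfrsf4 and Tnfrsf25 were not called. None of the 11 had a called interaction. Their median interaction was -0.95, of the same sign as the -0.77, -1.15 and -1.23 of the 3 receptors. The summed level of 7 NK cell markers was 185 to 870 CPM in BA+RT, 144 to 238 in RT, 404 to 1126 in BA and 122 to 400 in control tumours. In BA against control 5 of the 7 were higher (Gzma, Klrd1, Ncr1, Nkg7 and Prf1) and 1, Eomes, was lower. The median log2 fold change of the 7 was 1.74, against 1.12 for the T cell markers. In BA+RT against BA the same 5 were lower and Eomes was higher. Of the 7, only Eomes had a called interaction, 0.49 (SE 0.15, edgeR adjusted p = 0.0405), opposite in sign to those of the 3 receptors. The median interaction of the 7 was -0.72, of the same sign as those of the 3 receptors. Gzma, Nkg7 and Prf1 were higher in BA+RT than in RT tumours, where none of the 3 receptors was called. The summed level of 8 regulatory T cell markers was 503 to 692 CPM in BA+RT, 498 to 664 in RT, 658 to 857 in BA and 559 to 844 in control tumours. Entpd1 and Ikzf2 made up most of this sum. In BA tumours they averaged 383 and 207 CPM of a mean sum of 740 CPM, against 19.5 CPM for Foxp3. Of 6 tested, Ctla4, Foxp3 and Il2ra were higher and Il10 was lower in BA against control. Ctla4, Entpd1 and Foxp3 were lower in BA+RT than in BA tumours. Il2ra, which encodes the IL-2 receptor alpha chain, did not follow the receptors in irradiated tumours: it was higher in BA+RT than in control tumours (1.16, SE 0.25, edgeR adjusted p = 0.000279) and than in RT tumours (1.03, SE 0.25, adjusted p = 0.00632), and in BA+RT against BA it was -0.36 and uncalled (adjusted p = 0.209). The part of T cell or NK cell number in the receptor changes was not tested.

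Foxp3, the transcription factor that defines regulatory T cells, averaged 4.78 ± 1.92 CPM in BA+RT, 4.07 ± 1.87 in RT, 19.5 ± 5.67 in BA and 6.45 ± 2.23 in control tumours (SD, n = 9). It was 1.60 higher in BA than in control tumours (SE 0.24, edgeR adjusted p = 8.18e-06), with an interaction of -1.38 (SE 0.36, adjusted p = 0.0125); Tnfrsf18 was called in both as well. Against control it was -0.42 in BA+RT (adjusted p = 0.181) and -0.64 in RT (adjusted p = 0.0511) and not called, where Tnfrsf18 was called lower. The log2 ratio of Tnfrsf18 to Foxp3 counts averaged 1.99 ± 0.54 in BA+RT, 2.27 ± 0.84 in RT, 1.84 ± 0.49 in BA and 2.32 ± 0.41 in control tumours, and passed in none of the 5 comparisons (exact permutation, adjusted p = 0.0721 for BA against control, difference -0.47). Without BA mouse 15 that difference was -0.56 and passed (adjusted p = 0.0346).

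Tnfrsf4 moved less than Foxp3. The log2 ratio of Tnfrsf4 to Foxp3 counts averaged 3.21 ± 0.66 in BA+RT, 3.50 ± 0.67 in RT, 2.05 ± 0.34 in BA and 2.88 ± 0.55 in control tumours. It was lower in BA than in control tumours by -0.83 (exact permutation, adjusted p = 0.00358) and higher in BA+RT than in BA tumours by 1.16 (adjusted p = 0.00329). In RT against control it was 0.63 and did not pass (adjusted p = 0.0721), but it passed without RT mouse 24 (0.74, adjusted p = 0.0336) or without control mouse 3 (0.76, adjusted p = 0.0228). Foxp3 had 1 to 18 counts per library outside the BA group, which limits these ratios.

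For DR3 the T cell receptor chain Cd3g served as the yardstick. The log2 ratio of Tnfrsf25 to Cd3g counts averaged 1.31 ± 0.82 in BA+RT, 2.44 ± 1.21 in RT, 0.41 ± 1.12 in BA and 1.17 ± 0.98 in control tumours, and no comparison passed (exact permutation, adjusted p = 0.0612 for RT against control, difference 1.27). RT mouse 24 had the most Cd3g counts among RT tumours, 62. Without it the difference was 1.56 in RT against control and -1.42 in BA+RT against RT, and both passed (adjusted p = 0.00617).

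Cd40 is carried by antigen-presenting cells, whose MHC class II genes were mostly lower with radiation, as Cd40 was, but not with BA alone. The sizes differed. Cd40 changed by -0.36 in RT against control and -0.38 in BA+RT against BA, and the median of the 5 tested class II genes by -2.06 and -2.31. Those 2 Cd40 falls lost their calls with factors from the 9 reference genes. The summed level of 8 class II genes and Cd74 was 1921 to 8766 CPM in BA+RT, 1535 to 3471 in RT, 8341 to 26818 in BA and 6466 to 26580 in control tumours, and 2 of the 8 were at 0 in all mice. Of 5 tested, 4 were lower and 1 higher in BA+RT against control, in RT against control and in BA+RT against BA. In BA against control 1 was higher and none lower, and in BA+RT against RT none was called, while Cd40 was lower in both. The log2 ratio of Cd40 to Cd74 counts averaged -4.33 ± 0.62 in BA+RT, -3.17 ± 0.40 in RT, -6.34 ± 0.57 in BA and -4.77 ± 0.54 in control tumours (SD, n = 9). It was 1.61 higher in RT than in control tumours, with no overlap (exact permutation, adjusted p = 0.000309), and lower by -1.57 in BA than in control tumours (adjusted p = 0.000529). It was 2.01 higher in BA+RT than in BA tumours (adjusted p = 0.000411) and lower by -1.16 in BA+RT than in RT tumours (adjusted p = 0.000926). In BA+RT against control it was 0.44 and did not pass (adjusted p = 0.201); without BA+RT mouse 40 it was 0.61 and passed (adjusted p = 0.0314).

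Markers of other cells moved with Cd40 in some comparisons and against it in others. The summed level of 5 dendritic cell markers was 786 to 1377 CPM in BA+RT, 777 to 1009 in RT, 843 to 1188 in BA and 758 to 1458 in control tumours, and that of 8 B cell markers was 32.3 to 120 CPM, 40.6 to 488, 46.4 to 881 and 41.5 to 416 in the same groups. These ranges overlapped between groups, and a few abundant genes carried the sums. In BA tumours Irf8 averaged 538 CPM and Ly75 292 CPM, and Igkc ranged from 5.09 to 681 CPM. Of the 5 dendritic cell markers 2 were higher and none lower in BA against control, 1 was higher and 3 lower in BA+RT against control, and 2 were lower in RT against control. The summed level of 7 macrophage markers was 3840 to 4940 CPM in BA+RT, 3681 to 5400 in RT, 4322 to 5158 in BA and 3962 to 4764 in control tumours. Of these 7, 2 were higher and 2 lower in BA+RT against control, 4 higher and 1 lower in RT against control, and 2 higher and 1 lower in BA against control. Fibroblast and pericyte markers, of which 5 of 6 were lower and none higher in BA+RT and in BA against control and 2 were lower in RT against control, summed to 40417 to 71654 CPM in BA+RT, 36440 to 86049 in RT, 38103 to 56827 in BA and 55938 to 99896 in control tumours. The 3 epithelial and 4T1 markers were all lower in BA than in control tumours, while Msln and Muc1 were higher and Epcam lower in BA+RT and in RT than in control tumours. They summed to 5399 to 10015 CPM in BA+RT, 6616 to 9999 in RT, 8422 to 11181 in BA and 10031 to 15528 in control tumours. The part of these cells in the Cd40 change was not tested.

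With the group means removed, the genes that followed each transcript over the 36 tumours differed among the 5, as a description of tumours that share libraries and scaling. Tnfrsf18 was most like Zap70, the kinase of the T cell receptor (Pearson's r = 0.75), Cd27 (0.72) and Ltb (0.72). Tnfrsf4 followed Ccl5 (0.53), Btla (0.49) and Ubd (0.49), and Tnfsf4 followed Cd22 (0.59), Terf1 (0.55) and Aim2 (0.55). Tnfrsf25 followed no T cell gene most closely but Nthl1 (0.73), Fn1 (0.72) and Pdia3 (0.71). Cd40 followed Foxp3 (0.51), Csf3r (0.46) and Fut4 (0.45). Between pairs of the 5 transcripts r was at most 0.31, for Tnfsf4 with Tnfrsf18, and it was 0.27 for Tnfrsf4 with Tnfrsf18.

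Within the BA group alone Tnfrsf4 and Tnfrsf18 were more closely related, with r = 0.78 and rho = 0.80 over 9 tumours (exact permutation p = 0.0131 and 0.0138; adjusted over 12 relations 0.157 and 0.166), and 0.74 without the 2 tumours farthest from the median. After adjustment the relation did not pass. In the BA+RT group r was -0.49 (rho -0.53, exact permutation p = 0.176 and 0.148, without 2 tumours -0.68), and whether the groups differ was not tested.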

How the data were processed

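RNA of 36 tumours was read with 2 targeted QIAseq panels, 72 libraries in all, and the 5 genes described are on panel 1. The labels do not say which commercial panel is panel 1. Per the file headers, the deposited table gives raw whole-number counts for each amplicon; the aligner, and whether reads or molecular barcodes were counted, were not given in the sources used here. Another deposited table gives regularized log2 values, made by the authors with DESeq2 per the submitters' processing notes, and served for 1 alternative. The headers name GRCh38 for positions and the notes list GRCm38 and GRCh38; all 1278 amplicons lay inside their named gene on GRCm38 (GENCODE M21), with positions counted from 0, and are given from 1. Genomic DNA control rows, 2.32e-05% of counts, were left out. Replicate libraries of panel 1 differed by more than counting noise in all 144 pairs (lowest chi-square per degree of freedom 12.0).

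The test was edgeR's robust quasi-likelihood F test (version 4.0.16 under R 4.3.3), two-sided, on each panel alone with all 4 groups in 1 fit, after TMM scaling and filterByExpr, with Benjamini-Hochberg adjustment over 1038 genes; a gene was called at an adjusted p under 0.05. SE was taken as |log2 fold change|/√F, and 95% intervals are normal intervals from it. Log2 ratios per mouse used a pseudocount of 0.5 and an exact permutation test over 48620 arrangements, adjusted over 6 ratios in 5 comparisons. With TMM, a change is relative to most genes of its panel and not to total RNA. Each sample was a separate mouse. The edgeR script was tested on simulated counts.

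The members, gene lists and tests were chosen with earlier results of these data known. Named genes were the 5 members, their ligands on the panel, Foxp3, Il2ra and Ctla4, from each list the 2 largest called changes, and the 3 genes most correlated with each member; Ltb, Tnfsf14, Ltbr, Tnfrsf9, Cd3g and Cd74 were otherwise named as list members called or as partners in a ratio. Alternatives were other size factors, the low-count filter, DESeq2, limma on the deposited log2 values, other pseudocounts, and each mouse left out.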

Additional observations from a re-analysis of the deposited data

Results flagged for a closer look

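Of 44 sets of 9 values, 20 for the 5 transcripts and 24 for the ratios, 5 held a tumour farther from the others than Dixon's test allows at 95%; chance flags about 1 in 20 such sets. The number given is the gap to the nearest tumour divided by the range of the group. Tnfrsf4 was lowest in RT mouse 21, at 32.0 CPM (0.589). Tnfrsf25 was lowest in BA+RT mouse 45, at 12.5 CPM (0.577). In RT mouse 21 the log2 ratios to Foxp3 were highest for Tnfrsf4 (5.01, gap 0.498) and for Tnfrsf18 (4.30, gap 0.601); that library had 1 Foxp3 count. The log2 ratio of Cd40 to Cd74 was lowest in BA+RT mouse 40, at -5.68 (0.497), the mouse with the most Cd74 counts of its group.

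By edgeR's interaction term, BA changed 3 transcripts differently with and without radiation, by -0.77 for Tnfrsf4, -1.15 for Tnfrsf18 and -1.23 for Tnfrsf25 (log2, BA+RT against RT minus BA against control).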

How the results depend on the processing

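The counts of all genes called kept within 1.5 times under every alternative run, and of 25 pairwise changes of the 5 transcripts none lost its call when any 1 mouse was left out. Scaling by 9 reference genes shifted the median change over all genes (log2) to 0.14 in BA+RT against control, 0.19 in RT against control and 0.20 in BA+RT against BA. It moved the split of higher to lower calls to 387 to 157 (243 to 251 with TMM), 422 to 79 (213 to 219) and 472 to 147 (281 to 274), and to 99 to 183 (130 to 150) in BA against control and 19 to 96 (38 to 74) in BA+RT against RT. Under it the Cd40 falls in RT against control (-0.13) and BA+RT against BA (-0.18) lost their calls. Uncalled values near 0 changed sign: with reference genes, Tnfrsf4 to 0.064 in BA+RT and 0.10 in RT against control and -0.037 in BA+RT against RT; the Cd40 interaction to 0.0088 with DESeq2 size factors, 0.0040 with the DESeq2 test and 0.027 with limma on the deposited log2 values; Tnfrsf18 in BA+RT against RT to 0.0063 with limma; and the log2 ratio of Tnfrsf4 to Tnfsf4 in BA against control to -0.054 with a pseudocount of 0.1. The cause was not tested.

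With each mouse left out in turn, the following uncalled values changed sign or passed, and are given as lowest to highest. For the changes these were Cd40 interaction -0.072 to 0.035, Tnfrsf18 in BA+RT against RT -0.10 to 0.15, Tnfrsf25 in BA+RT against control -0.035 to 0.16, Tnfrsf4 in BA+RT against RT -0.039 to 0.057, Tnfsf4 in BA against control 0.58 to 0.89. For the log2 ratios they were Cd40 to Cd74 in BA+RT against control 0.30 to 0.61, Tnfrsf18 to Foxp3 in BA against control -0.56 to -0.36, Tnfrsf18 to Foxp3 in RT against control -0.30 to 0.064, Tnfrsf25 to Cd3g in BA+RT against RT -1.42 to -0.91, Tnfrsf25 to Cd3g in BA+RT against control -0.11 to 0.32, Tnfrsf25 to Cd3g in RT against control 1.02 to 1.56, Tnfrsf4 to Foxp3 in RT against control 0.44 to 0.76, Tnfrsf4 to Tnfrsf18 in BA against control -0.42 to -0.27, Tnfrsf4 to Tnfrsf18 in BA+RT against RT -0.13 to 0.065, Tnfrsf4 to Tnfsf4 in BA against control -0.12 to 0.13.

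With only the 2 groups compared, Tnfsf4 gave no value in RT against control and in BA against control, since it did not pass the low-count filter there. No paired analysis was possible because the treatment groups share no mouse numbers. Depth limits Tnfsf4 most, with 1 to 8 counts per unirradiated library.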
